A study of Homo sapiens with 6 samples.

Results

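The genes described here are the semaphorins, plexins, neuropilins, ephrins, Eph receptors, SLITs, ROBO receptors, netrins, UNC5 receptors, NEO1 and L1CAM, the main ligand and receptor families of axon guidance. They were chosen by gene symbol, and 62 of the 19876 symbols in the count table belong to them: 33 ligands, 28 receptors and the adhesion molecule L1CAM. An antisense transcript of the same name pattern was left out, and family members without a row in the table were not analysed here. RNA was sequenced from cells labelled A549, the name of a widely used human lung cancer line derived from an adenocarcinoma, and the genotype is given as wild type in both groups. The control group received PBS, phosphate-buffered saline, and the other group rhTR11B. TR11B is a protein name for osteoprotegerin, which is secreted and captures ligands of the TNF family, and the labels leave the abbreviation, the dose and the time unexplained. Each group held 3 libraries that the labels call biological replicates. Nothing says that they came from separate cultures, so p-values measure the spread among the 6 libraries only, and this may be technical. The comparison asks how transcript levels differ between cells given rhTR11B and cells given PBS.

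The libraries held between 36315751 and 38148838 counts. The first principal component of log2 CPM covered 36.4% of the variance. On it rhTR11B replicate 3 stood apart at 25.7, against 2.66 and 8.63 for the other rhTR11B libraries and -18.4 to -5.96 for PBS. The share of mitochondrially encoded counts was 7.71%, 6.63% and 7.31% in PBS replicates 1, 2 and 3 and 8.75%, 7.88% and 10.4% in the rhTR11B libraries, so it was higher in every rhTR11B library than in every PBS library. The label was checked against marker genes. Of the 8 genes listed for A549 and epithelium 5 had a row, and 3 of these reached a mean of 1 FPKM. NKX2-1, SFTPC and SFTPB had no row. The keratins KRT8, KRT18 and KRT7, intermediate filament genes of simple epithelium, had mean levels of 460, 454 and 138 FPKM (counts scaled by gene length and library total). The epithelial surface genes EPCAM (0 to 10 counts) and CDH1 (0 to 1 count) and the keratin KRT19 (0 to 5 counts) were at or near 0 in every library. A549 is known for a homozygous deletion of CDKN2A and for very high expression of AKR1C aldo-keto reductases. In these libraries CDKN2A had 1593 to 2310 counts (9.48 to 13.1 FPKM), AKR1C2 had 0 to 1 count and AKR1C3 had 0 to 3 counts. NQO1, also known to be high in A549, had a mean of 95.0 FPKM. VIM, the gene of the intermediate filament protein vimentin, usually high in mesenchymal cells, had a mean of 402 FPKM. CDKN2A, AKR1C2, AKR1C3, NQO1, KRT19 and VIM were picked after their values were seen. CDKN2A and the AKR1C genes go against the label, in both groups alike, and the cells are therefore called "cells labelled A549" here. What other cells they could be was not tested.

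Apart from TUBB3, the listed markers of other cell types were low. Of the listed fibroblast genes 0 of 7 in the table reached a mean of 1 FPKM, and their summed level was 0.486 to 0.668 FPKM with PBS and 0.780 to 1.26 FPKM with rhTR11B. For endothelial cells it was 0 of 4 (0.0397 to 0.0931 and 0.0427 to 0.0591 FPKM) and for blood cells 0 of 2 (0.112 to 0.263 and 0.151 to 0.352 FPKM). Of the 5 neuron genes 1 reached it, the tubulin TUBB3, called lower with rhTR11B, which sets the list's sum of 137 to 139 FPKM with PBS and 116 to 120 FPKM with rhTR11B, while RBFOX3, SNAP25, MAP2 and SYN1 were at or near 0. In bulk RNA, fewer cells of a kind and less RNA per cell cannot be told apart.

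Guidance cues are secreted or membrane-bound proteins that steer growing axons and migrating cells by attraction or repulsion. Ephrins are held on the cell surface and bind Eph receptor tyrosine kinases on a neighbouring cell, and both partners can signal. Semaphorins signal through plexins, and the secreted class 3 semaphorins mostly need a neuropilin as co-receptor. SLITs bind ROBO receptors, and netrins bind DCC, UNC5 receptors and neogenin (NEO1). Outside the nervous system the same families act in epithelial contact, vessel growth and tumour cell movement.

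With rhTR11B, 13 of the 46 guidance genes that passed the low-count filter rose and 0 fell, at a Benjamini-Hochberg adjusted p under 0.05 in edgeR's quasi-likelihood test. Among all 13567 tested genes 2.92% were called higher and 0.678% lower, against 28.3% and 0 of the guidance genes. The 13 were the ligands EFNA1, SEMA3C, SEMA4C, SEMA4D, SEMA4G, SEMA6B and NTN1, the receptors PLXNA3, PLXNB2, PLXND1, ROBO1 and NEO1, and L1CAM. The increases were 1.19-fold to 2.04-fold. The filter keeps a gene that reaches about 10 counts in 3 libraries, which may all belong to 1 group, so counts over the 46 do not speak for the 16 members left out. EFNA2 alone of the 46 reached this level only through its rhTR11B libraries, which favours a positive value without overlap, and it is among the genes counted as positive and as not overlapping here. At an unadjusted p under 0.05 there were 24 higher and 0 lower, where all tested genes gave 13.8% and 10.3%. DESeq2 called 16 higher and 0 lower (6.49% and 3.15% of the genes it gave an adjusted p). Library-scaled levels, given as CPM (counts scaled by library size), did not overlap between the groups for 24 of the 46, all higher with rhTR11B, and this was so for 15.1% of all tested genes, with 14% lower. The log2 fold change was positive for 44 of the 46 and for 50% of all tested genes, and its median was 0.29, a value that 10.4% of all tested genes exceeded. Of the 25 members with a mean of at least 5 CPM over all 6 libraries, 24 were positive.

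The calls changed with the library left out. Without PBS replicate 1, 9 members passed (1.85% of all tested genes were then higher). Without PBS replicate 2, 1 member passed (0.131%), and without PBS replicate 3, 0 passed in edgeR (0.0655%). The sizes moved less than the calls. Over the 13 genes the median was 0.38, 0.31 and 0.34 (log2) without PBS replicates 1, 2 and 3, and 0.33 with all libraries. These 13 were chosen by their calls in the same libraries, which favours values above 0. Over all 46 tested members the median was 0.35, 0.25 and 0.31 in these fits, and 0.29 with all libraries. The lowest of the 6 values came in PBS replicate 2 for 27 of the 46 tested members and for 23.2% of all tested genes. The highest came in rhTR11B replicate 3 for 36 of the 46 and for 31.2% of all tested genes. The mitochondrial share was likewise lowest in PBS replicate 2 (6.63%) and highest in rhTR11B replicate 3 (10.4%), and its part in the result was not tested. Without rhTR11B replicate 3, 11 passed (2.15% of all tested genes), and the median was 0.27 over the 13 and 0.21 over the 46. The transcripts of the tested members were also richer in G and C than those of all tested genes, with a median of 59.7% against 48.3%. The gene lengths behind their FPKM were greater too, with a median of 6224.5 against 3981 bases. The parts of GC content and length were not tested separately. With per-library offsets for GC content and length, 9 of the 13 passed, where 3.82% of all genes so tested were higher, and the median over the 46 members was 0.22. The median over all genes was -0.026 in that fit, and 0.0030 for the same genes without offsets. The offsets were added after the data were seen.

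**Figure D1:**
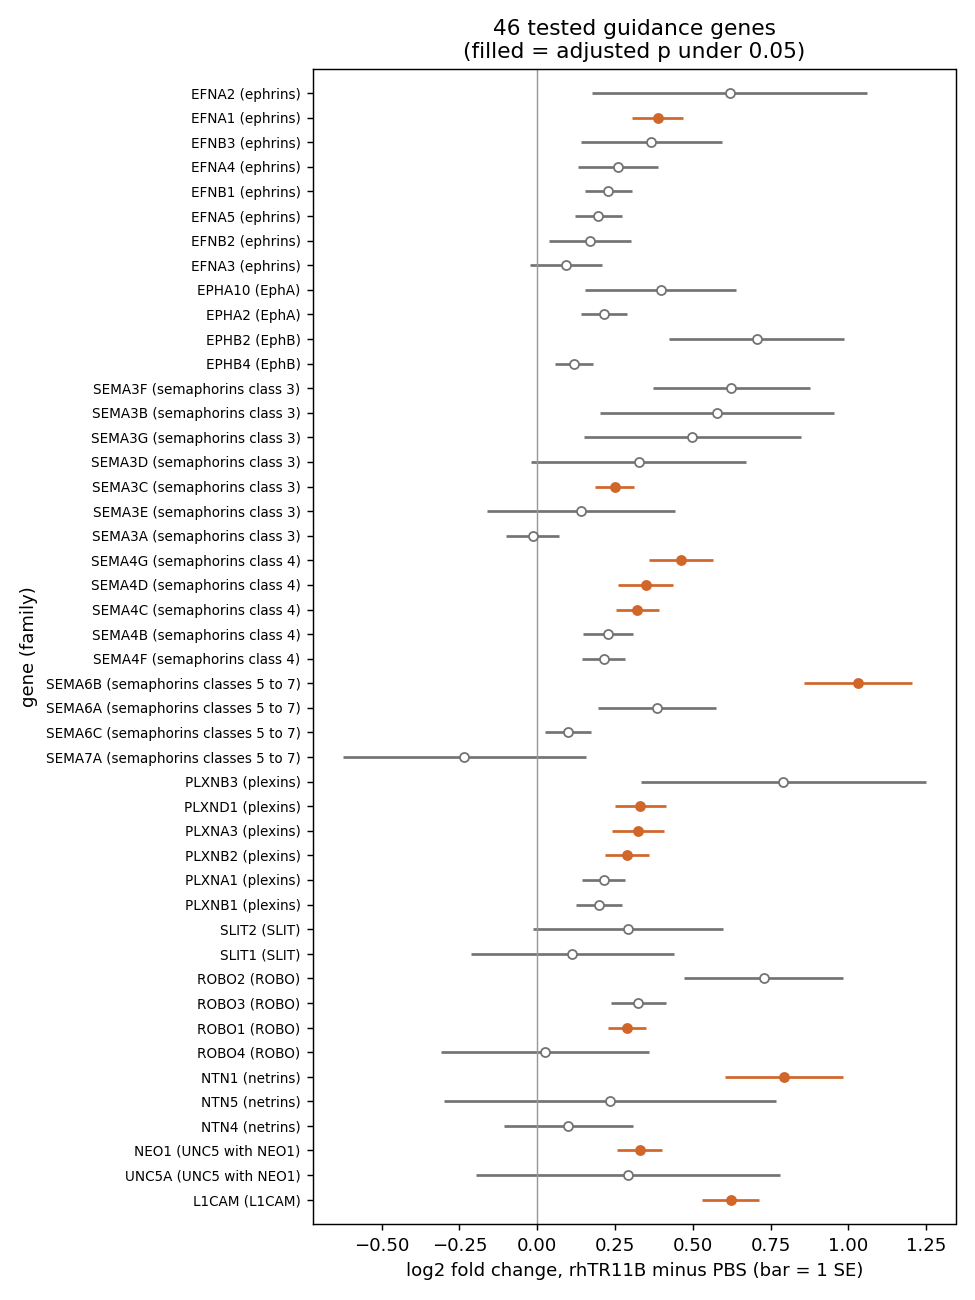
Log2 fold change (rhTR11B minus PBS) of the 46 tested guidance genes, ordered by family, from edgeR; each bar is 1 standard error and filled points passed at an adjusted p under 0.05. The points of 44 genes lie to the right of 0, and 13 are filled.

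**Figure D2:**
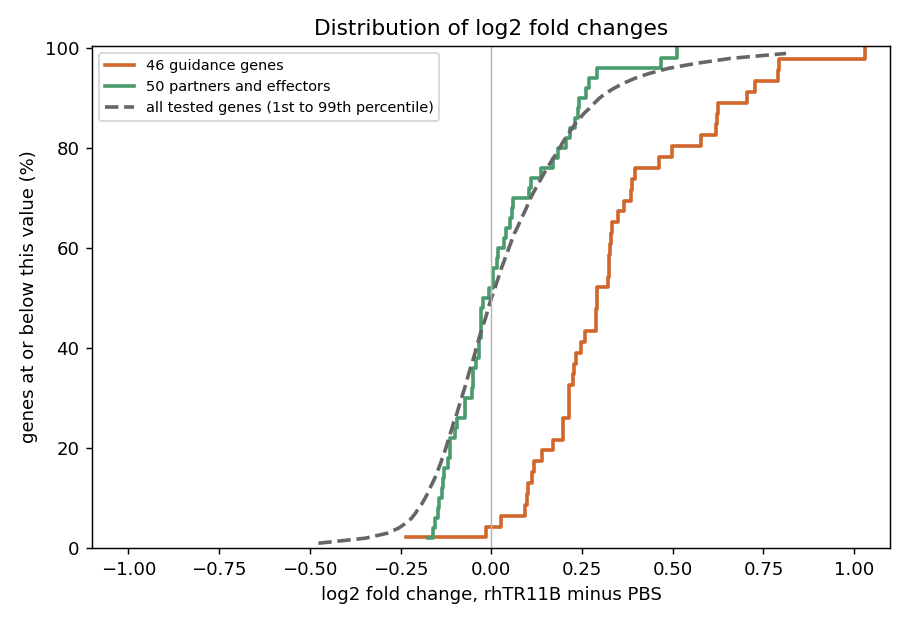
Share of genes (%) at or below each log2 fold change for the 46 guidance genes, the 50 tested partners and effectors of the same pathways, and all tested genes. The curve of the guidance genes crosses 50% at 0.29, that of the partners and effectors at -0.016 and that of all genes at 0.00.

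By level the guidance genes fell into a few abundant transcripts and many rare ones. A mean of at least 10 FPKM was reached by 10 of the 62, 14 lay between 1 and 10 FPKM, and 38 were under 1 FPKM. The ephrin EFNA1 led with 361 FPKM over all libraries, and its share of the summed FPKM of the 62 genes was 48.5% to 52.6% in each library. Next came its receptor EPHA2 (77.9 FPKM) and PLXNB2 (68.0 FPKM), whose ranges over the 6 libraries overlapped, and then SEMA3C (47.0 FPKM). SEMA4B had 21.9 and EPHB4 18.3 FPKM, while PLXNA1, ROBO1, EFNB1 and SEMA4C lay at 13.7, 12.9, 11.5 and 11.4 FPKM. Summed over the 62 genes, the FPKM came to 688, 608 and 626 with PBS, by replicate number, and to 721, 775 and 877 with rhTR11B. It was thus higher in each rhTR11B library, and highest in the library that stood apart.

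**Figure D3:**
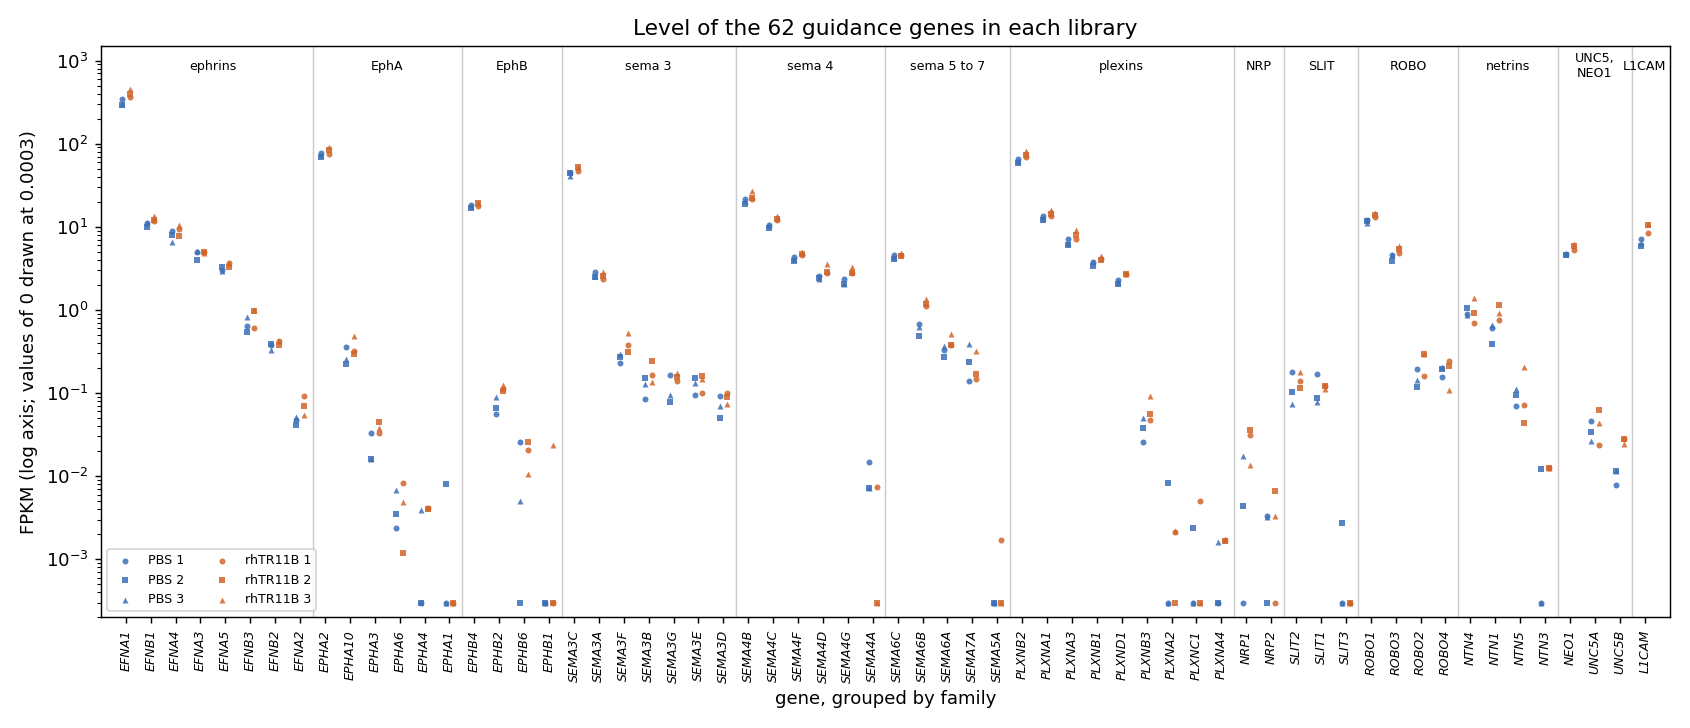
Deposited FPKM of the 62 guidance genes in each of the 6 libraries on a log axis, grouped by family, with values of 0 drawn at 0.0003. EFNA1 stands highest near 361 FPKM, and both neuropilins lie under 0.1 FPKM in all libraries.

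The promoters of some called members are shown, and they differ in base composition. Whether the called members share regulation was not tested. RefSeq promoter entries (GRCh38.p14) matched 53 of the 62 members by symbol. The 250 bases before the listed start are printed 5′ to 3′ for the pair of called ligands and the pair of called receptors with the smallest p whose listed start is the outer end of the gene, with each GC box (GGGCGG on either strand, overlaps counted) in capitals. SEMA4G and ROBO1 have 2 listed starts each, and which start these cells use was not tested.
EFNA1, chr1:155127626-155127875, plus strand: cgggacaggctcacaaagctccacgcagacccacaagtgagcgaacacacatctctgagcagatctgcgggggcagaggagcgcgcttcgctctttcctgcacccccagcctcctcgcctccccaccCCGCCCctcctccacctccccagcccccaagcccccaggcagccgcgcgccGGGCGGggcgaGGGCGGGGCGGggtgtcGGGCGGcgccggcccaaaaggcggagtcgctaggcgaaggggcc
SEMA4G, chr10:100969254-100969503, plus strand: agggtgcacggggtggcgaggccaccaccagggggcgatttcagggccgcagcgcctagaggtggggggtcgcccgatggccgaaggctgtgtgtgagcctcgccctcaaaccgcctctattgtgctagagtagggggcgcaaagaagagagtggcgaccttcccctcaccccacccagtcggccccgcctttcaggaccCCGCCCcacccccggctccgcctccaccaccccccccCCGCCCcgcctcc
ROBO1, chr3:79767999-79768248, minus strand: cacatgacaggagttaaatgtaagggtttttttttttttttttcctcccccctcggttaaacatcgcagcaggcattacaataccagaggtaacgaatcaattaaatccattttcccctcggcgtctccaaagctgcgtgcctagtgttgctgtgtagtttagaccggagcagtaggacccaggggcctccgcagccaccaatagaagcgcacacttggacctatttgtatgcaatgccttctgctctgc
PLXND1, chr3:129606677-129606926, minus strand: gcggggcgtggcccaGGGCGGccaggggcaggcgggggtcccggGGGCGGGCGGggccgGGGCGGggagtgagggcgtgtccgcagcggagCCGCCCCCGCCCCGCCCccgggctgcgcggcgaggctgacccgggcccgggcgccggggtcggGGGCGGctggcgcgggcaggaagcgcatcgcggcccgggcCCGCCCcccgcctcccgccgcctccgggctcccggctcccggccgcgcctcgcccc
The window of EFNA1 held 5 GC boxes and was 73.2% G and C. SEMA4G had 2 and 71.6%, PLXND1 had 9 and 88.8%, and ROBO1 had 0 and 48%. Of all 35114 promoter windows of this length 42.6% held the box, with a median GC content of 58%. Among the members 41 of 53 held it, and among the called members 9 of 11, but their windows were also richer in G and C than the rest, with medians of 66.4% and 71.6%. These member counts take the first listed start of each gene, which need not be the start printed above. The 35114 windows take every listed start without ambiguous bases, so the sets are built differently. Neither CACGTG, nor TGACTCA, nor the NF-kB consensus (each on both strands) was found in the 4 windows printed; 6.35%, 4.2% and 9.96% of all windows hold them. A match is only a match of letters, and the data hold no binding measurement.

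Among the ephrins, EFNA1 rose and the other 7 had positive values that did not pass. EFNA1 encodes ephrin-A1, a lipid-anchored ligand that binds EPHA2. With PBS its level was 534, 454 and 472 CPM, and with rhTR11B 571, 609 and 729 CPM, in the order of the replicate numbers. The groups did not overlap, although PBS replicate 1 lay closer to rhTR11B replicate 1 than to the other PBS libraries. The mean went from 486 ± 41.8 to 636 ± 82.9 CPM (SD, n = 3 per group; log2 fold change 0.39, SE 0.08, adjusted p = 0.0211). The adjusted p was 0.165 without PBS replicate 2 and 0.158 without PBS replicate 3.

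EFNB1, a transmembrane ephrin that binds EphB receptors, stood next by p in its family, with 36.1, 32.4 and 36.4 CPM with PBS and 38.9, 39.2 and 44.9 CPM with rhTR11B. Its groups did not overlap, but its adjusted p was 0.0813. EFNA5 and EFNA2 also had no overlap (log2 fold changes 0.20 and 0.62, adjusted p = 0.122 and 0.410), the latter on 8 to 17 counts per library and kept by the filter through its rhTR11B libraries only. EFNA3, EFNA4, EFNB2 and EFNB3 overlapped between the groups and had values of 0.09 to 0.37.

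No Eph receptor passed in edgeR, of 4 tested. By unadjusted p under 0.05 there were 2 higher and 0 lower, where all tested genes gave 13.8% and 10.3%. By DESeq2 1 was higher, as were 6.49% of the genes it gave an adjusted p. EPHA2, a receptor tyrosine kinase abundant in many carcinomas, had 327, 288 and 310 CPM with PBS and 324, 352 and 398 CPM with rhTR11B. The groups overlapped, since rhTR11B replicate 1 lay within the PBS range (log2 fold change 0.21, SE 0.07, adjusted p = 0.0860). DESeq2 gave it an adjusted p of 0.0484, and edgeR 0.0240 without rhTR11B replicate 1. Without rhTR11B replicate 3 its log2 fold change was 0.13 (adjusted p = 0.181), with GC and length offsets 0.12 (0.176), and without PBS replicate 2 the adjusted p was 0.326. EPHB4, the receptor of ephrin-B2, had 77.6 ± 2.97 CPM with PBS and 84.2 ± 4.40 with rhTR11B (0.12, adjusted p = 0.247), a value that GC and length offsets moved to 0.026. In the fit with offsets the median of all genes was -0.026.

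The other tested Eph genes were rare. EPHB2 had 24 to 39 counts with PBS and 45 to 52 with rhTR11B, a log2 difference of 0.71 (SE 0.28, adjusted p = 0.135), without overlap. EPHA10 had 0.40 (SE 0.24, adjusted p = 0.329), which ranged from 0.12 without rhTR11B replicate 3 and 0.25 without PBS replicate 2 to 0.61 without PBS replicate 1. EPHA1, EPHA3, EPHA4, EPHA6, EPHB1 and EPHB6 were too low to test, with at most 11 counts in any library.

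Of 16 tested semaphorins 5 rose, and 3 of these were in class 4, transmembrane semaphorins that include ligands of B-type plexins. Among all tested genes 2.92% were called higher. All 5 tested class 4 genes had rhTR11B libraries above all PBS libraries, as had 15.1% of all tested genes. SEMA4C, a ligand of plexin-B2, had 56.0, 51.5 and 56.1 CPM with PBS and 64.8, 65.2 and 74.5 CPM with rhTR11B, a log2 difference of 0.32 (SE 0.07, adjusted p = 0.0211). SEMA4D, the ligand of plexin-B1, had 36.6, 34.6 and 33.8 CPM with PBS and 40.7, 40.3 and 52.6 CPM with rhTR11B (0.35, SE 0.09, adjusted p = 0.0400). In SEMA4D the library rhTR11B replicate 3 stood well above the other 2, and without it the log2 fold change was 0.21 (adjusted p = 0.0793). SEMA4G had 11.1, 9.69 and 9.74 CPM with PBS and 13.1, 13.2 and 15.8 CPM with rhTR11B (0.46, SE 0.10, adjusted p = 0.0246). In GENCODE 29, SEMA4G shares 22.3% of its exonic bases with MRPL43 on the other strand, and the strand setting of the counting is not given, so reads of the pair may be mixed. MRPL43 itself had a log2 fold change of -0.14 (adjusted p = 0.251).

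SEMA4B, the class 4 gene with the highest level, had 82.9 ± 5.96 CPM with PBS and 96.9 ± 12.8 with rhTR11B and did not pass (0.23, adjusted p = 0.0977), nor did SEMA4F (0.21, adjusted p = 0.0754). The value of SEMA4B was 0.11 without rhTR11B replicate 3 and 0.13 with GC and length offsets. SEMA4A had 0 to 2 counts and was not tested. Without PBS replicates 2 and 3 in turn, the adjusted p was 0.165 and 0.130 for SEMA4C, 0.180 and 0.194 for SEMA4D, and 0.165 and 0.156 for SEMA4G. SEMA4D was also lost without PBS replicate 1 (0.0644) and with GC and length offsets (0.0566).

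SEMA6B, a transmembrane semaphorin of the class that binds A-type plexins, had the largest fold change of all members that passed. It had 2.62, 1.87 and 2.41 CPM with PBS and 4.28, 4.56 and 5.28 CPM with rhTR11B, on 72 to 188 counts per library. The groups were well separated (2.04-fold; log2 fold change 1.03, SE 0.17, adjusted p = 0.00561). Without PBS replicates 2 and 3 its adjusted p was 0.0608 and 0.0749. Its relatives did not pass: SEMA6A had 0.39 (adjusted p = 0.221), and 0.22 without rhTR11B replicate 3, and SEMA6C, the most abundant of them, 0.10 (adjusted p = 0.441). SEMA6C turned to -0.021 with GC and length offsets, where the median of all genes was -0.026. SEMA7A, a lipid-anchored semaphorin, had -0.23 (SE 0.39, adjusted p = 0.760), and SEMA5A had at most 1 count.

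In the secreted class 3, SEMA3C rose and the other 6 did not pass. SEMA3C had 228, 221 and 207 CPM with PBS and 241, 265 and 273 CPM with rhTR11B. The lowest rhTR11B library lay just above the highest PBS library (log2 fold change 0.25, SE 0.06, adjusted p = 0.0393). It was not called without PBS replicate 1, 2 or 3 or rhTR11B replicate 2 (adjusted p = 0.0637, 0.176, 0.197 and 0.0799). SEMA3A, a classic repellent of axons, had 24.6 ± 1.75 CPM with PBS and 24.4 ± 2.57 with rhTR11B (-0.01, SE 0.09). SEMA3F had 0.62 (adjusted p = 0.140) on 41 to 90 counts, and 0.39 without rhTR11B replicate 3, and SEMA3B, SEMA3D, SEMA3E and SEMA3G were all under 0.2 FPKM on average.

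The receptors of these ligands were unevenly present. NRP1 and NRP2, the neuropilins through which class 3 semaphorins bind, had 0 to 8 and 0 to 4 counts per library and were not tested, while SEMA3C itself stood at 47.0 FPKM. PLXNA2 and PLXNA4, receptors of class 6 semaphorins, and PLXNC1, the receptor of SEMA7A, had at most 4, 1 and 2 counts. The plexins that were present were PLXNB2, PLXNA1, PLXNA3, PLXNB1 and PLXND1, with mean levels from 68.0 down to 2.43 FPKM, and PLXNB3 at 6 to 21 counts.

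Of 6 tested plexins 3 rose and 5 were higher without overlap, where all tested genes gave 2.92% and 15.1%. PLXNB2, the receptor of SEMA4C, had 499, 448 and 481 CPM with PBS and 544, 558 and 641 CPM with rhTR11B, a log2 difference of 0.29 (SE 0.07, adjusted p = 0.0335). PLXNA3, which works with neuropilins in class 3 signalling, had 77.1, 65.1 and 70.3 CPM with PBS and 78.4, 86.3 and 101.1 CPM with rhTR11B (0.32, SE 0.08, adjusted p = 0.0400), with rhTR11B replicate 1 just above the highest PBS library. PLXND1, a plexin known from vessel patterning, had 15.9, 14.2 and 15.0 CPM with PBS and 18.8, 18.8 and 19.3 CPM with rhTR11B (0.33, SE 0.08, adjusted p = 0.0357). The 3 rhTR11B libraries were close together in PLXND1, unlike in the other plexins.

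PLXNA1 had 0.21 (adjusted p = 0.0733; DESeq2 0.0424), PLXNB1 0.20 (adjusted p = 0.110) and PLXNB3 0.79 (SE 0.46, adjusted p = 0.303). None of the 3 plexin calls held without PBS replicate 2 (adjusted p = 0.195 for PLXNB2, 0.207 for PLXNA3 and 0.185 for PLXND1) or without PBS replicate 3 (0.166, 0.186 and 0.163). With GC and length offsets none held either (0.0659, 0.0578 and 0.0807), with PLXNB2 at 0.17 and PLXND1 at 0.22. PLXNA3 was also lost without rhTR11B replicate 3 (0.0599), and PLXND1 without PBS replicate 1 (0.0523) or rhTR11B replicate 2 (0.0592).

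**Figure D4:**
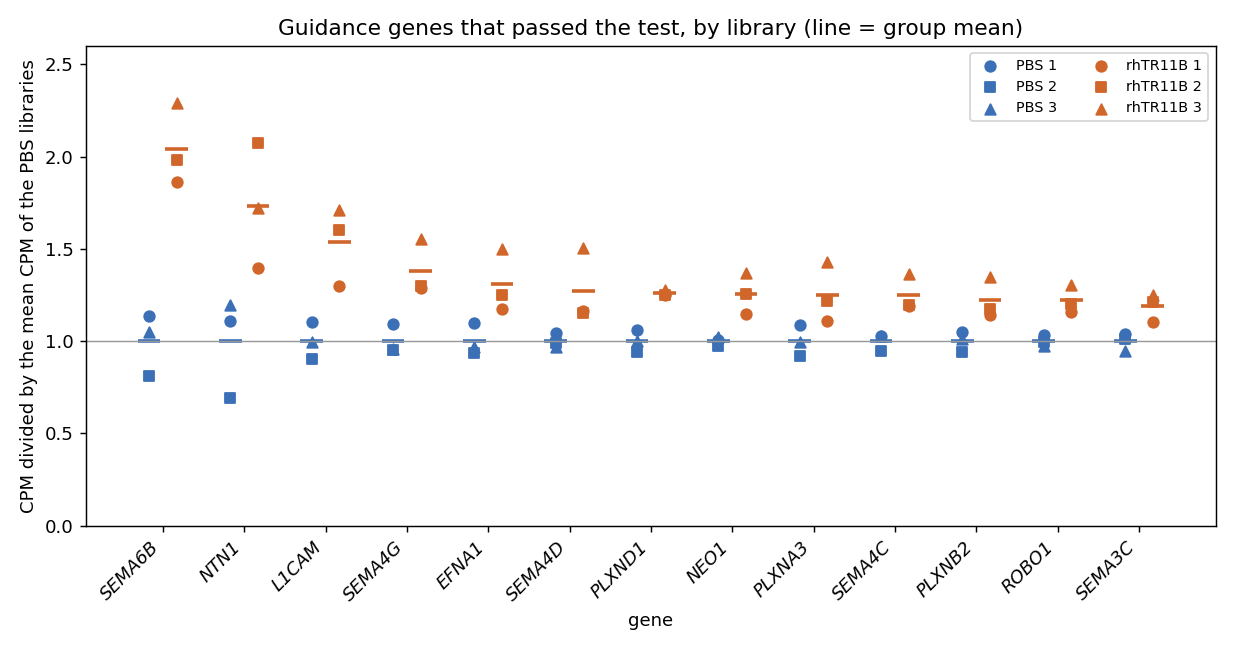
CPM of the 13 called guidance genes in each library, divided by the mean of the PBS libraries, with a line at each group mean. In all 13 the 3 rhTR11B points lie above the 3 PBS points, and rhTR11B replicate 3 is the highest library in 12.

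Of the ROBO receptors, ROBO1 and ROBO3 were present at 12.9 and 4.85 FPKM, while ROBO2 and ROBO4 (0.200 and 0.187 FPKM) were about as low as the ligands SLIT1 and SLIT2 (0.115 and 0.131 FPKM). ROBO1, the most abundant ROBO, had 98.8, 95.0 and 92.7 CPM with PBS and 110, 115 and 125 CPM with rhTR11B. The groups were clearly apart (log2 fold change 0.29, SE 0.06, adjusted p = 0.0211), though not by the test without PBS replicate 2 (0.139) or 3 (0.151). ROBO3, with 20.9 ± 1.97 and 26.1 ± 2.55 CPM, had the same direction without overlap but an adjusted p of 0.0506 (0.32; DESeq2 0.0237). ROBO2 had 0.73 (SE 0.26, adjusted p = 0.0958) at under 0.3 FPKM, with overlap, and ROBO4, a ROBO of endothelial cells, had 0.03 (SE 0.33). SLIT1 and SLIT2 had 24 to 50 and 29 to 68 counts and did not pass (0.11 and 0.29, adjusted p = 0.869 and 0.595), with SLIT2 at 0.048 without PBS replicate 3 and 0.71 without PBS replicate 1, and SLIT3 had at most 1 count.

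In the netrin group the ligand NTN1 and the receptor NEO1 rose. NTN1 encodes netrin-1, a secreted cue, and had 3.74, 2.34 and 4.04 CPM with PBS and 4.72, 7.0 and 5.81 CPM with rhTR11B. PBS replicate 2 was the lowest library by a wide margin (1.73-fold; log2 fold change 0.79, SE 0.19, adjusted p = 0.0335). NEO1, the receptor neogenin, had 34.9, 33.7 and 35.4 CPM with PBS and 39.8, 43.5 and 47.4 CPM with rhTR11B (0.33, SE 0.07, adjusted p = 0.0234). Its PBS libraries were close together, all below the rhTR11B libraries. The adjusted p without PBS replicates 2 and 3 was 0.180 and 0.130 for NTN1 and 0.165 and 0.140 for NEO1. It was 0.0779 for NTN1 without rhTR11B replicate 2 and 0.0563 for NEO1 without PBS replicate 1. NTN4, a netrin of basement membranes, had 0.10 (SE 0.21), and -0.23 without rhTR11B replicate 3. NTN5 and UNC5A did not pass (0.23 and 0.29, SE 0.53 and 0.49), and NTN3 and UNC5B had at most 1 and 7 counts.

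L1CAM, an adhesion molecule of axons that also marks invasive carcinoma cells, had the smallest p of all members. It had 37.0, 30.3 and 33.4 CPM with PBS and 43.7, 53.7 and 57.6 CPM with rhTR11B. The lowest rhTR11B library lay above the highest PBS library by more than the PBS group's SD (1.54-fold; log2 fold change 0.62, SE 0.09, adjusted p = 0.00264). It passed in 5 of the 6 fits that left out 1 library, the exception being PBS replicate 3 (adjusted p = 0.0657). It was the member that passed without PBS replicate 2 (0.0342). In GENCODE 29, L1CAM shares 4.94% of its exonic bases with LCA10 on the other strand, and PLXNA3 shares 11 bases with LAGE3.

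**Figure D5:**
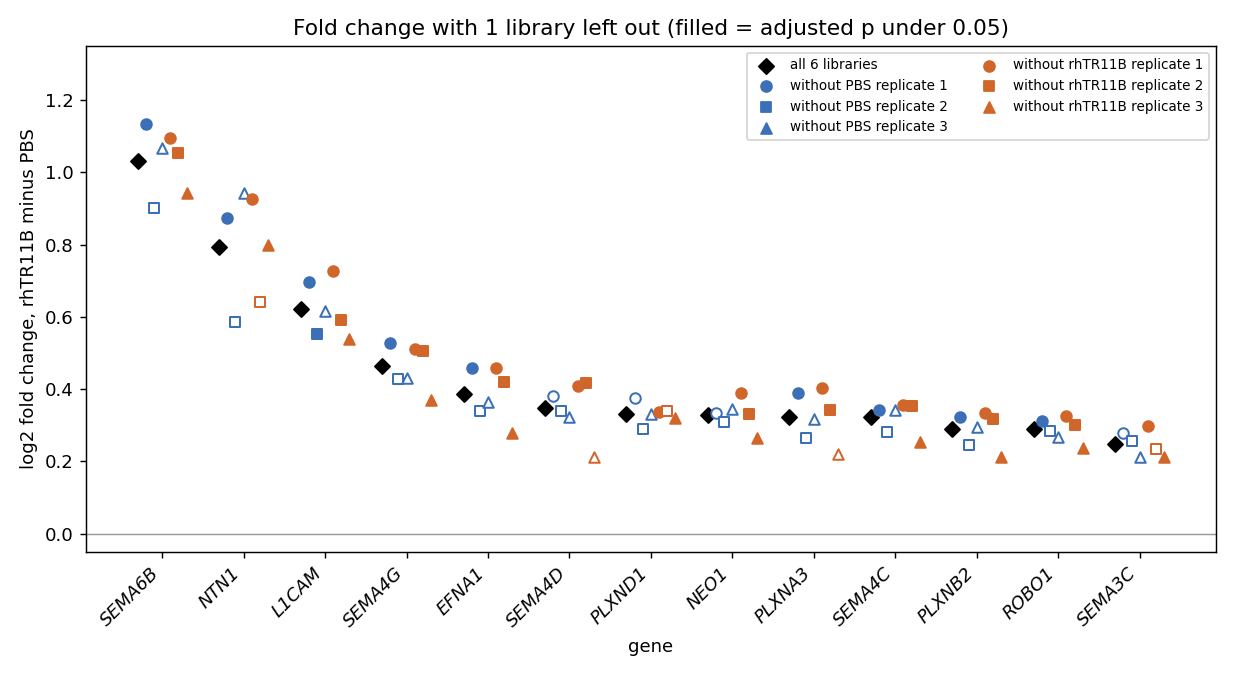
Log2 fold change of the 13 called guidance genes with all 6 libraries (diamonds) and with each library left out, filled where the adjusted p was under 0.05. Most open symbols belong to the fits without PBS replicate 2 or 3, while the values stay above 0.2 in all 7 fits. The genes were chosen by the fit with all 6 libraries, which the other fits mostly reuse, and this favours values above 0.

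Other genes of the same pathways were taken from a list of 67 partners and effectors, of which 56 had a row and 50 were tested. Of these 1 was higher and 0 lower, 2% against the 2.92% and 0.678% of all tested genes. At an unadjusted p under 0.05 there were 6 each way, where all tested genes gave 13.8% higher and 10.3% lower. DESeq2 called 3 higher and 0 lower, against 6.49% and 3.15% of the genes it gave an adjusted p. Their median log2 fold change was -0.016. The called gene was ADAM10, a surface protease that cleaves A-type ephrins, with 211, 214 and 199 CPM with PBS and 229, 246 and 261 CPM with rhTR11B (0.24, SE 0.06, adjusted p = 0.0423). It did not pass without PBS replicate 1, 2 or 3 or rhTR11B replicate 2 (adjusted p = 0.0833, 0.165, 0.198 and 0.0761).

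The list held 15 other ligands, co-receptors and adhesion molecules, of which 7 had a row and 5 were tested. These 5 had positive values and 0 passed, with ALCAM nearest to passing (0.24, adjusted p = 0.0516). For this and the sign counts that follow, 50% of all tested genes were positive. Of 15 effectors of plexins and neuropilins 5 were positive and 10 negative, and the smallest p was that of the flavin monooxygenase MICAL3 (0.22, adjusted p = 0.0634), which had 0.14 without rhTR11B replicate 3 and 0.096 with GC and length offsets. Of 13 Eph and ephrin effectors 5 were positive and 8 negative. The SLIT and ROBO effectors were 5 and 5, with the kinase PAK2 at -0.16 (adjusted p = 0.130). The netrin effectors were 4 and 3, with the lipid transfer protein PITPNA at -0.13 (adjusted p = 0.158). The difference in median between the guidance genes and this list was not tested.

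Several members lie close together in the genome (GRCh38.p14). EFNA4, EFNA3 and EFNA1 follow each other on chromosome 1 (155063740 to 155134899), and of these EFNA1 rose, while EFNA4 and EFNA3 had log2 fold changes of 0.26 and 0.09 (adjusted p = 0.228 and 0.665). On chromosome X, PLXNB3, L1CAM and PLXNA3 lie between 153764249 and 154477779, and the last 2 rose. On chromosome 7, SEMA3C, SEMA3E, SEMA3A and SEMA3D are spread more widely, between 80742538 and 85250243. There SEMA3C rose, and SEMA3E, SEMA3A and SEMA3D did not pass (0.14, -0.01 and 0.33). SEMA3F and SEMA3B lie on chromosome 3 between 50155058 and 50277546, with values of 0.62 and 0.58, and neither passed. ROBO3 and ROBO4 are neighbours on chromosome 11 (124865432 to 124897865) with values of 0.32 and 0.03.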

How the data were processed

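The authors deposited a table of read counts per gene symbol and a table of FPKM values for 6 libraries, for which the submitters' processing notes list HISAT, HTSeq, fastp, DESeq2, R 3.2.0 and the build GRCh38. The order of steps, the annotation and the strand setting: not given in the sources used here. The deposited FPKM equal count divided by gene length and library total for 100% of the values (relative tolerance 0.001). Groups follow the titles. From the counts, edgeR 4.0.16 (R 4.3.3) was run over the whole table: filterByExpr (minimum count 10), TMM scaling, group as the only term, quasi-likelihood test, Benjamini-Hochberg adjustment over 13567 genes. CPM use TMM-scaled library sizes. The standard error is the log2 fold change divided by the square root of F. The common biological coefficient of variation was 0.0656. The step was tested on simulated data.

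Members and lists were chosen with earlier results of these data known. Named are all called members, in each family the most abundant tested gene and the pair with the smallest p, untested members, and of the partner list called genes and the smallest p per sublist; other members were named after their values were seen. Marker lists covered epithelial, fibroblast, endothelial, blood and neuron genes. Alternatives were DESeq2 1.42.0 (size factors, Wald test), library size alone, limma 3.58.1 (voom; trend on log2(FPKM + 1) and log2(FPKM + 0.1), mean of at least 1 FPKM or no filter), a mean of at least 5 CPM, no count filter, a block for replicate number, each library left out, and, added later, offsets for GC content and length (GENCODE 29 transcripts; natural splines per library). Library pairs within a group differed beyond sampling noise. Promoters come from RefSeq.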

Additional observations from a re-analysis of the deposited data

How the results depend on the processing

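With all libraries 13 members were higher and 0 lower, and 0 were lower under each alternative. The count of higher members was 14 with DESeq2 size factors, 12 with library size alone and 16 with the DESeq2 Wald test. It was 13 with limma-voom and 19 with no count filter, a fit that covered all 62 members. Of all genes given an adjusted p, 2.99%, 2.28%, 6.49%, 2.56% and 4.73% were higher in these fits, in this order. With GC and length offsets the count was 9, where 3.82% of all genes were higher. It was 8 with a mean of at least 5 CPM, which leaves 25 members, 1 with limma-trend on log2(FPKM + 1) and 1 on log2(FPKM + 0.1) (24 members), and 0 on log2(FPKM + 1) without a filter. These fits called few genes at all: 0.573%, 0.592% and 0 of all genes were higher in the 3 limma-trend fits, and 1.98% with at least 5 CPM. Leaving out 1 library gave 0 (without PBS replicate 3) to 18 (without rhTR11B replicate 1, where 6.56% of all genes were higher against 2.92% with all libraries). The partner list, with 1 higher gene, had 3 with the DESeq2 Wald test, 3 without a count filter, 3 with the replicate block, 2 with GC and length offsets, and 0 with library size alone, at least 5 CPM and the 3 limma-trend fits, and 0 to 3 with 1 library left out. It had 0 lower genes, and 1 with GC and length offsets. Among the genes named by rule, signs turned in these, none of which passed: SEMA6C to -0.021 with the offsets (median of all genes -0.026), NTN4 to -0.23 without rhTR11B replicate 3 (range -0.23 to 0.31 with 1 library left out), SLIT1 to -0.047 and -0.079 without PBS replicates 2 and 3 (-0.079 to 0.54), and UNC5A to -0.057 without rhTR11B replicate 2 (-0.057 to 0.58). With the replicate block 17 members and 5.71% of all genes were higher. Deviations from the group means correlated at -0.10, 0.05 and -0.01 for replicates 1 to 3, and PBS replicate 1 correlated best with rhTR11B replicate 3 (0.11). With 3 libraries per group these values cannot settle whether the replicate numbers pair the libraries, and the labels do not say. Over all genes the offsets gave 471 higher and 326 lower calls, against 398 and 69 for the same 12320 genes without them. Depth limits the rare members most: the tested members under 100 counts in every library had standard errors of 0.25 to 0.53 (log2), against 0.06 to 0.08 for the 5 called genes with the highest FPKM.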
